A study of Mus musculus with 28 samples.

Results

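Primary spermatocytes sorted from Csmd1 knockout testes were compared with those of wildtype testes, gene by gene. The comparison rested on 5 of the 28 RNA-seq libraries of the series: knockout mice 544, 550 and 614 and wildtype mice 178 and 648, with 1 library per mouse. The libraries were taken by genotype, gate and mouse number, with earlier results of these data known. A library of knockout mouse 613 was left out because its values were quantified in another way, and it is shown as a check only. The knockout allele was constitutive: exon 1 of Csmd1 and part of intron 1 were replaced by a lacZ/neomycin cassette. The line came from a mixed 129SvEvBrd:C57BL/6 background, the labels give C57BL/6 as the strain of both genotypes, and no treatment is given. The study describes the sorted animals as sexually mature males of a single stated age, but the labels give no ages and the study also profiled immature testes. Each library came from the testis of 1 mouse, so the animal is the replicate. Cells were taken by Hoechst fluorescence and not by a surface or genetic marker, so a gate can hold more than its named stage.

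Primary spermatocytes are the germ cells that enter meiosis after the last division of spermatogonia. They replicate their DNA, break and repair it to pair homologous chromosomes along the synaptonemal complex, silence the X and Y chromosomes within the sex body, and then store transcripts for the flagellum and acrosome that spermatids build later. Csmd1 encodes a large membrane protein with complement regulatory domains, and the question of the comparison was which transcripts differ in these cells when it is deleted.

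The 3 knockout libraries held an estimated 32635820 to 40419132 counted reads and the wildtype libraries 49819467 and 58811929, so depth differed with genotype and its part in the results was not tested. Levels are in RPKM (reads per kilobase of transcript, scaled to library depth), summed over the transcripts of a gene. Differences are between mean quantile-normalized log2(RPKM + 0.1) values, knockout minus wildtype, which understates changes of genes near the 0.1 that was added. Csmd1 itself was listed at 0.210, 0.436 and 0.678 RPKM in knockout mice 544, 550 and 614 and at 0.132 and 0.0690 RPKM in wildtype mice 178 and 648. The sum takes in exons outside the deletion, so it does not check the genotypes, and every direction given here rests on the labels. The gate itself held spermatocyte transcripts: the median level of 16 pachytene and diplotene markers was 7.34 to 8.43 log2 units in the 5 libraries, against -0.85 to 3.02 for 15 spermatogonial markers. It was 2.0 to 2.77 for 14 leptotene and zygotene markers and 1.96 to 5.83 for 20 spermatid markers, so spermatid transcripts were present too. The 2 wildtype libraries differed from each other by a median of 0.77 log2 units over genes, more than pairs of knockout libraries (0.62). Transcripts without a value formed the same set in mice 614 and 648 and other sets in 544 and 550 and in 178, which is taken to show which libraries were quantified together. The difference between 614 and 648 is given beside the pooled values of the main gene groups.

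No gene passed an adjusted p of 0.05 in limma among 19260 genes with a mean of at least 0.1 RPKM (0% called), and the smallest adjusted p was 0.0601. At an unadjusted p under 0.05 there were 2235 genes (11.6%), of which 1212 (6.29%) were higher and 1023 (5.31%) lower in knockout spermatocytes. A plainer count asked for separation of the libraries. All 3 knockout values lay above both wildtype values for 2679 genes (13.9%) and below both for 3228 genes (16.8%). Of these, 1106 above (5.74% of all genes) and 973 below (5.05%) also had an unadjusted p under 0.05 in limma. An exact permutation test of 3 against 2 libraries cannot give a p below 0.1, so the separation of a single gene is a description. The scale mattered to the split, since the median gene was 0.33 log2 units higher in knockout libraries in RPKM as deposited and 0 after quantile normalization. As deposited, 4160 genes (21.6%) lay above and 1552 (8.06%) below both wildtype libraries, and 10 genes (0.0519%) lay above as deposited but below after normalization. On both scales 2430 genes (12.6%) lay above and 1492 (7.75%) below. The shares of 13.9% and 16.8% are the background for the gene groups described next, except where both scales are named. Most separations were narrow: the gap between the nearest knockout and wildtype values was over 1 log2 unit for 327 genes above and 209 below. At the edge, Lmln stood just inside with 4.19, 3.11 and 3.31 in knockout against 3.11 and 2.16 in wildtype libraries, where the nearest values differed by less than the decimals shown, and Smim24 just outside with 12.06, 11.94 and 12.42 against 11.94 and 10.48.

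The 15 protein-coding genes with the widest upward gaps, among those with a mean of at least 1 RPKM, included Dirc2, Wtip and Ctps. Dirc2, a lysosomal transporter on chromosome 16, measured 2.63, 1.70 and 2.58 RPKM in knockout mice 544, 550 and 614 against 0.0510 and 0.0370 RPKM in wildtype mice 178 and 648. Ctps, the CTP synthase, measured 33.0, 15.3 and 39.7 RPKM against 1.88 and 1.86 RPKM. For both genes the lowest knockout library stood far above the wildtype pair, which lay close together. The log2 differences were 3.72 ± 0.64 (SE) for Dirc2 and 3.40 ± 0.59 for Ctps, each at an adjusted p of 0.372 in limma. Wtip, a LIM domain protein that binds the Wilms tumour factor, measured 10.2, 4.08 and 6.50 RPKM against 0.442 and 0.246 RPKM, a log2 difference of 3.47 ± 0.63 at the same adjusted p.

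Psme2, a subunit of a proteasome activator, measured 16.3, 10.3 and 42.9 RPKM in knockout against 1.59 and 0.335 RPKM in wildtype libraries. Its log2 difference of 4.14 ± 0.79 was the largest of the 15 and came to 5.0 without wildtype 178 and 3.22 without wildtype 648. Igf2r, the receptor that carries mannose 6-phosphate proteins and insulin-like growth factor 2 to lysosomes, measured 4.81, 2.70 and 3.73 RPKM against 0.325 and 0.201 RPKM. Slc6a8, the X-linked creatine transporter, measured 3.78, 2.27 and 3.8 RPKM against 0.0630 and 0.237 RPKM. The replication-dependent histone genes Hist1h4j and Hist1h2bj were also there, the first at 2.17, 1.08 and 2.32 RPKM against 0.110 and 0 RPKM. Mpdz, Efemp2, Polr2h, Pdss1, Agrn and Yipf6 were also among the 15, with log2 differences of 2.48 to 3.26. In libraries that the choice of these genes did not use, although 3 of the mice are the same, 14 of the 15 were higher in the spermatogonia gate than in the secondary spermatocyte gate of all 4 mice with both gates. Over all genes tested 26.6% were, and of the 2679 genes above both wildtype libraries 49.8%. Slc6a8 was the exception, at 3 of 4 mice. The spermatogonia gate of knockout 544, among these mice, also held late spermatid RNA, with 3449 RPKM of Prm2. Dirc2 ranged from 3.53 to 8.83 RPKM in the spermatogonia gate and from 0.250 to 1.06 RPKM in the secondary spermatocyte gate.

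**Figure D1:**
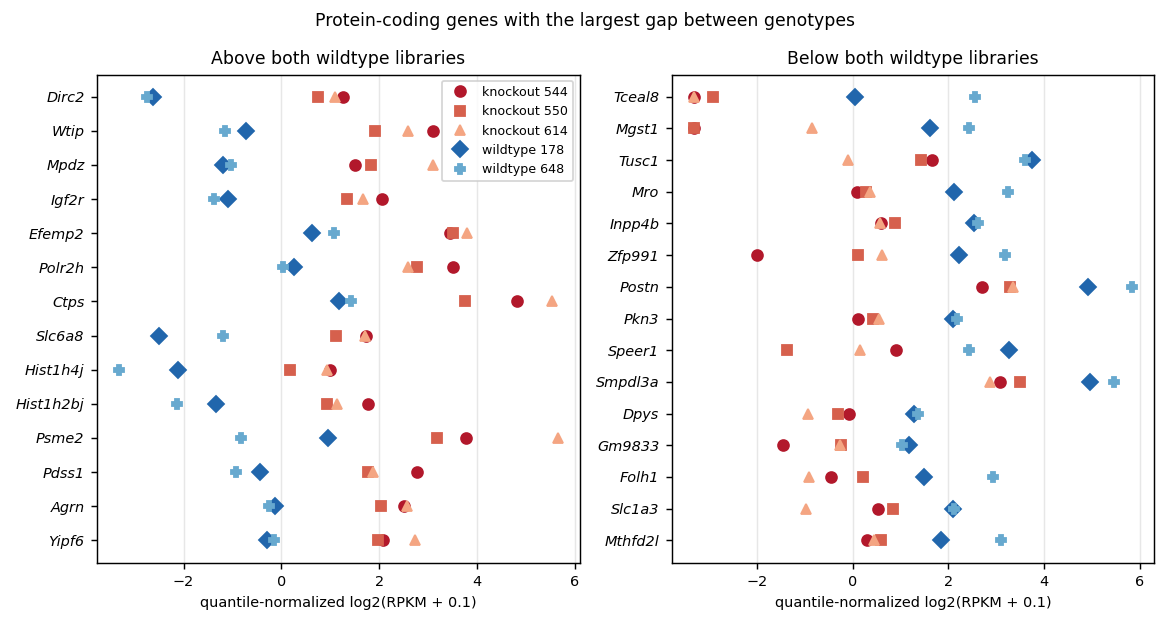
Quantile-normalized log2(RPKM + 0.1) level (horizontal axis) of protein-coding genes with the largest gaps above (left, 14 genes) and below (right, 15 genes) the wildtype range; each symbol is 1 library, red for knockout and blue for wildtype. Dirc2 at left has the widest gap, 3.37 log2 units, and Tceal8 and Mgst1 at right lie near the bottom of the scale in knockout mice 544 and 550.

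Downward gaps were led by Tceal8 on the X chromosome, a member of the transcription elongation factor A-like family. It was listed at 0, 0.0300 and 0 RPKM in knockout mice 544, 550 and 614 against 0.809 and 4.25 RPKM in wildtype mice 178 and 648, a log2 difference of -4.49 ± 0.82. Mgst1, a microsomal glutathione transferase, measured 0, 0 and 0.657 RPKM against 2.64 and 3.87 RPKM, a difference of -4.52 ± 0.86. Both genes were near the bottom of the scale in 544 and 550. In the secondary spermatocyte gate of 4 mice, knockout mice included, Mgst1 ranged from 2.41 to 18.2 RPKM and Tceal8 from 1.72 to 11.1 RPKM. That gate also held Sertoli cell RNA, with a summed marker level of 257 to 846 RPKM, so the cells that carried these transcripts are not known.

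Postn, the matrix protein periostin, had the highest mean level of these 15 genes, and its groups did not overlap: 7.76, 11.1 and 10.3 RPKM in knockout against 30.5 and 49.6 RPKM in wildtype libraries, a log2 difference of -2.27 ± 0.51. Smpdl3a, a secreted phosphodiesterase, measured 10.2, 12.8 and 7.88 RPKM against 31.3 and 38 RPKM. Inpp4b, a phosphoinositide phosphatase, measured 1.62, 1.90 and 1.83 RPKM against 5.19 and 4.47 RPKM, with little spread in either group. Tusc1 measured 3.55, 2.85 and 1.15 RPKM against 12.7 and 9.29 RPKM. The folate enzymes Mthfd2l and Folh1 were below both wildtype libraries as well, with log2 differences of -2.03 ± 0.62 and -2.60 ± 0.70. Of the rest, Mro, Zfp991, Pkn3, Speer1, Dpys, Gm9833 and Slc1a3 differed by -1.76 to -3.13 log2 units. None of the 15 was higher in the spermatogonia gate than in the secondary spermatocyte gate of all 4 mice, and 5 were lower there in all 4: Postn, Speer1, Dpys, Gm9833 and Mthfd2l. Over all genes 18.6% were above in none of the 4 mice, and of the 3228 genes below both wildtype libraries 34.7%.

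The smallest adjusted p in either direction, 0.0601, was that of Gm8730, a processed pseudogene on chromosome 8 (102864845 to 102865798, minus strand, GRCm38). It measured 0.570, 0.345 and 0.540 RPKM in knockout against 54.3 and 12.4 RPKM in wildtype libraries, a log2 difference of -5.84 ± 0.67 with a gap of 4.65 log2 units. In whole testes of 5 other knockout mice the same gene ranged from 0.144 to 106 RPKM. Mice 308 and 273, both knockout, had 106 and 40.7 RPKM, so low values did not go with the genotype in every mouse. The level went with the animal: the 4 sorted libraries of knockout 544 had 0.120 to 0.570 RPKM and those of wildtype 178 had 8.74 to 77.1 RPKM. Rplp0, the acidic ribosomal phosphoprotein gene of which Gm8730 is a copy, lay above both wildtype libraries, at 1495, 984 and 642 RPKM against 505 and 184 RPKM. Reads shared by such copies can be split between them by the authors' counting, so both values are uncertain.

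The hairpin gene Mir147 was the third by p among genes lower in knockout, at 9.31, 17.9 and 24.3 RPKM against 102 and 291 RPKM. It lies at positions 122640803 to 122640881 of chromosome 2, plus strand, inside the protein-coding gene AA467197, and reads of the host transcript cannot be told apart from those of the hairpin. AA467197, named after its values were seen, measured 543, 592 and 427 RPKM against 1190 and 1291 RPKM, a log2 difference of -1.11 ± 0.38. The mature 5p arm (RefSeq, GRCm38.p6) is shown with its seed, bases 2 to 8, in capitals. Libraries were made from polyadenylated RNA, so its own level was not measured.
mmu-miR-147-5p: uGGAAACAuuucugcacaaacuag

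Long non-coding RNA genes lay more often below the wildtype range than above it: 177 of 664 lincRNA genes (26.7%) lay below and 52 (7.8%) above, and among 973 antisense genes 236 (24.3%) lay below and 90 (9.2%) above. Protein-coding genes were balanced, with 15.9% below and 15.4% above. These shares are on the quantile-normalized scale only. As deposited, 8.06% of all genes lay below and 21.6% above, and shares by gene type were not counted on that scale. A730085K08Rik had the widest downward gap of the long non-coding genes with a mean of at least 1 RPKM, at 0.396, 0.553 and 0.808 RPKM in knockout against 2.03 and 5.63 RPKM in wildtype libraries. Hoxaas2, an antisense transcript of the Hoxa cluster, measured 0.592, 0.697 and 1.19 RPKM against 2.59 and 2.70 RPKM. Gm11418, Gm16853 and Fbxl12os completed the 5, with log2 differences of -1.82 to -2.15. Upward, Gm17201 measured 16.6, 5.46 and 3.57 RPKM against 0.698 and 0.309 RPKM, and Gm16280, Gm15205, Asb17os and 1700080N15Rik differed by 1.81 to 3.29. No strand setting is stated for the counting, so an antisense gene and its partner cannot be told apart.

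Of 15 markers of spermatogonia, the cells before primary spermatocytes, 7 lay above both wildtype libraries and 0 below, and the median difference was 2.04 log2 units. Sohlh2, a transcription factor of spermatogonial differentiation, measured 9.11, 4.02 and 3.56 RPKM in knockout against 0.388 and 0.671 RPKM in wildtype libraries. Uchl1, a ubiquitin hydrolase of undifferentiated spermatogonia, measured 78.8, 33.7 and 204 RPKM against 15.6 and 5.34 RPKM. Sohlh1, Dnmt3b, Crabp1, Lin28a and Zbtb16 were the other 5. Knockout 614 carried the most of this list, with a summed level of 381 RPKM against 151 and 79.3 RPKM in 544 and 550 and 35.8 and 32.1 RPKM in the wildtype libraries. The median level of the list did not separate the genotypes, at 1.12, 1.03 and 3.02 log2 units in 544, 550 and 614 against -0.85 and 1.68 in 178 and 648. The median difference was 1.12 without 614, 1.06 without wildtype 178 and 2.31 without wildtype 648, and 614 exceeded 648 by a median of 2.43. In these bulk libraries, fewer cells of a type and less RNA per cell cannot be told apart.

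Leptotene and zygotene markers, the first steps of meiotic prophase, had 6 of 14 members above both wildtype libraries and 0 below, with a median of 0.72 that was 0.05 for 614 against 648. The other members overlapped, 6 of the 14 had negative differences, and the summed level was highest in wildtype 648, at 1390, 1100 and 614 RPKM in knockout against 705 and 2480 RPKM in wildtype libraries. Sycp3, the axial element protein, measured 530, 545 and 242 RPKM against 329 and 1585 RPKM. Dmc1, the strand-exchange recombinase of meiosis, measured 4.77, 2.04 and 1.32 RPKM against 0.225 and 0.183 RPKM, a log2 difference of 2.51 ± 0.73. Prdm9, the methyltransferase that places recombination hotspots, measured 5.11, 2.21 and 4.71 RPKM against 0.776 and 0.834 RPKM. Zcwpw1, a reader of its marks, measured 57.8, 29.9 and 32.7 RPKM against 15.4 and 14.1 RPKM. Tex101 (322, 119 and 98.6 against 52.2 and 23.2 RPKM) and Rec114 also lay above. Pachytene and diplotene markers leaned the other way, with 5 of 16 below, 1 above and a median of -0.50. Tbpl1, the germline TATA-binding relative, measured 55.5, 126 and 91.9 RPKM in knockout against 207 and 424 RPKM in wildtype libraries, and Nme5 100.7, 110.7 and 74.7 RPKM against 154 and 268 RPKM. Aurka, Ccdc62 and Ccna1 lay below by gaps of 0.07 to 0.21 log2 units, and Ccna1 overlapped as deposited. Piwil1, the pachytene piRNA nuclease, was the exception at 437, 292 and 124 RPKM against 138 and 121 RPKM, which overlapped as deposited.

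Of the spermatid markers, 9 of 20 lay above both wildtype libraries and 0 below, and the median difference was 1.49 log2 units (3.0 for 614 against 648). Prm2, a protamine that packs sperm DNA, measured 81.8, 96.5 and 113 RPKM in knockout against 49.8 and 0.0650 RPKM in wildtype libraries. Tnp1, a transition protein that precedes the protamines, measured 59.7, 89.0 and 93.8 RPKM against 33.4 and 0.816 RPKM. The summed level of the list did not separate the genotypes, at 8410, 14600 and 10300 RPKM against 9460 and 17500 RPKM. Most of that sum was Odf2, at 7265, 12965 and 8649 RPKM against 8185 and 15591 RPKM, so it says little about the other members. The median level of the list did separate the genotypes, at 4.17, 5.12 and 5.83 log2 units against 3.76 and 1.96. The near absence of Prm2 in wildtype 648 was not limited to this gate, since its whole testis had 0.456 RPKM of Prm2 against 2374 RPKM in the whole testis of wildtype 178. Whole testes of knockout mice 269, 286 and 308 were also low, at 1.83, 1.68 and 0 RPKM, against 4427 and 4079 RPKM in knockout 214 and 273. The study states a single age for its sorted animals, but the labels give no ages by mouse. Whether 648 had the stated age could not be checked. Without 648 the list's median was 1.04, and without 178 it was 1.99. Txndc8, Gapdhs, Odf1, Tnp2, Prm1, Akap4 and Tssk2 made up the 9. Of the somatic lists, 5 of 8 Leydig cell markers lay below (4 on both scales) and 0 above with a median of -1.35. Hsd17b3, which makes testosterone, was listed at 0 in all 3 knockout libraries against 0.505 and 0.200 RPKM, at least 2.79-fold lower when 3 reads per library are taken as the floor. Their summed level was low throughout, 3.47 to 7.62 RPKM in knockout and 7.18 and 9.36 RPKM in wildtype libraries. Sertoli cell markers had 3 of 10 below (0 on both scales) and 1 above with a median of -1.05, which was 0.01 without wildtype 648, whose summed level of 181 RPKM stood against 38.9 to 54.6 RPKM in the other 4. Macrophage markers had 4 of 10 below (2 on both scales) and 1 above, with a median of -0.35 that was 0.12 as deposited. Peritubular and stromal markers had 1 of 10 below, and endothelial and blood markers 1 of 7 above and 2 below (0 on both scales). The summed levels of these last lists, macrophages included, were 2.55 to 20.7 RPKM. The part of these cells in the results was not tested.

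**Figure D2:**
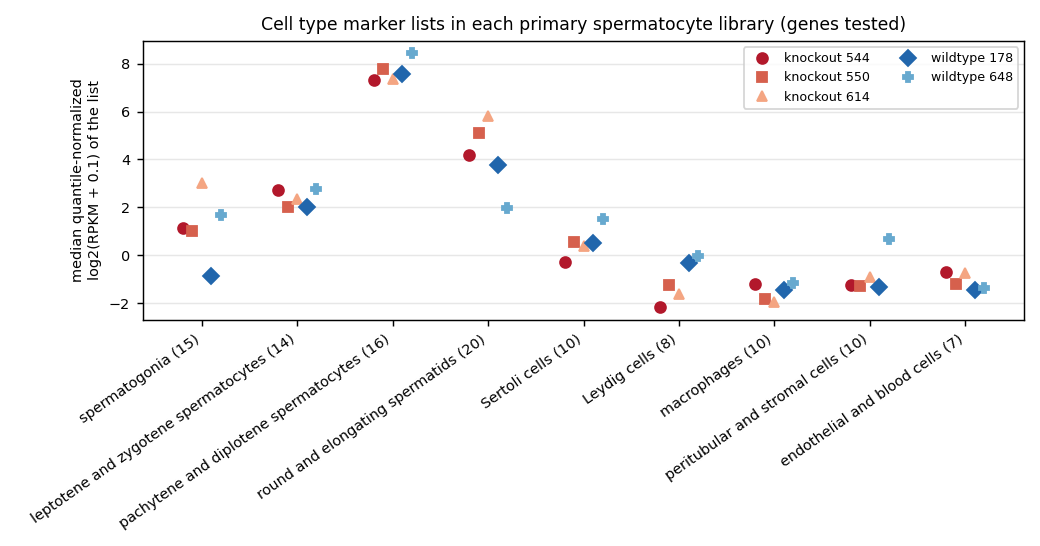
Median quantile-normalized log2(RPKM + 0.1) level (vertical axis) of 9 cell type marker lists in each of the 5 libraries, with the number of genes tested in parentheses. Knockout 614 is highest for spermatogonial (3.02) and spermatid (5.83) markers, wildtype 178 is lowest for spermatogonial markers (-0.85) and wildtype 648 for spermatid markers (1.96).

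Beyond chosen markers, genes were grouped by the spermatogonia and secondary spermatocyte gates of the 4 mice with both, libraries outside the comparison although 3 of these mice are in it; the grouping was made after the data were seen. Of 1267 genes more than 1 log2 unit higher in the spermatogonia gate in every mouse, 469 (37.0%) lay above both wildtype primary spermatocyte libraries and 16 (1.3%) below. Of 429 genes higher in the secondary spermatocyte gate, 13 (3.0%) lay above and 152 (35.4%) below. Their median differences were 0.93 and -0.55, and the first was 0.54 without wildtype 178, 0.66 without knockout 614 and 1.14 for 614 against 648. These gates are not pure, since Sertoli cell markers summed to 451 to 898 RPKM in the first and 257 to 846 RPKM in the other, against 38.9 to 181 RPKM in the 5 primary spermatocyte libraries. The spermatogonia gate of knockout 544 also held late spermatid RNA, with 3449 RPKM of Prm2 against 2179 RPKM in its own spermatid gate. Prm2 was at 118, 1.54 and 0 RPKM in the spermatogonia gates of 178, 286 and 648. The grouped genes were a minor share of all separated genes, since 82.0% of those above and 94.8% of those below belonged to neither group.

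Promoter windows of 300 bases around the start (RefSeq, GRCm38.p6) were searched on both strands for the motifs of 4 regulators. They were at hand for 11593 of 14985 tested protein-coding genes (77.4%), too few for the shares to stand for all of them. The letters CNCCTCAG, bound by the meiotic initiator STRA8, occurred on either strand in 9.2% of windows of genes above both wildtype libraries, 8.6% of those below, 9.5% of all tested genes with a window and 8.0% of the 27025 promoters kept. The MYB letters TAACGG, bound by the pachytene activator A-MYB, occurred in 3.7%, 3.9%, 3.5% and 2.7% in the same order, the CRE letters TGACGTCA in 3.3%, 3.2%, 3.0% and 1.9%, and the E2F letters TTTCCCGC in 2.5%, 1.2%, 1.9% and 1.1%. None of the 4 motifs contains another. The windows of Psme2 and Tusc1, among the widest upward and downward gaps, both hold the STRA8 letters (capitals), and that of Mov10l1, an upward piRNA gene, holds the STRA8 and A-MYB letters. Each is written 5′ to 3′ on the gene's strand: Psme2 at chr14:55591052-55591351 (minus), Tusc1 at chr4:93335462-93335761 (minus) and Mov10l1 at chr15:88982744-88983043 (plus).
Psme2: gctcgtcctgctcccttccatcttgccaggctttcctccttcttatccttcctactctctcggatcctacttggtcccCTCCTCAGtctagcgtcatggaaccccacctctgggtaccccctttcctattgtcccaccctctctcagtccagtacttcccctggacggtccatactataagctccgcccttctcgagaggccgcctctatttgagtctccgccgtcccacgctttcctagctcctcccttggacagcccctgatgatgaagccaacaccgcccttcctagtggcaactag
Tusc1: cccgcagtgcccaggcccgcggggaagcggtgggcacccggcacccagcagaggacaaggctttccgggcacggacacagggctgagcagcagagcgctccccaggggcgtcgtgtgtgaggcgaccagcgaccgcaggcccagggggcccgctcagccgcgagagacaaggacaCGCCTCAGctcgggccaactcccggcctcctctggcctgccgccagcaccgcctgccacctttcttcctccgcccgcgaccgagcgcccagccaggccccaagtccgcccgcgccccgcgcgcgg
Mov10l1: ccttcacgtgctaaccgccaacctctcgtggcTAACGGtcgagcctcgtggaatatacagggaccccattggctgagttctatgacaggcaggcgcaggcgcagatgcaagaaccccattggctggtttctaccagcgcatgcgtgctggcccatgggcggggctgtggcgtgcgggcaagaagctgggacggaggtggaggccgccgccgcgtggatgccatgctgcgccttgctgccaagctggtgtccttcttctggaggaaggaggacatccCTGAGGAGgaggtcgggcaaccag

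Of 28 recombination genes 9 lay above both wildtype libraries and 4 below, with a median of 0.54 that was 0.07 without wildtype 178 and -0.26 for 614 against 648. Besides Dmc1, Prdm9, Zcwpw1 and Rec114, the members above included Msh5, Mcmdc2 and Rad51ap2. Rnf212, which stabilises crossover sites, measured 6.81, 13.7 and 4.54 RPKM against 16.8 and 12.1 RPKM, below after normalization and overlapping as deposited. Among 12 synaptonemal complex and HORMA genes 3 lay above and 1 below: Trip13, the remodeller of HORMA proteins, measured 8.58, 5.37 and 6.79 RPKM against 2.47 and 1.25 RPKM, and Syce2, a central element protein, 90.4, 42.9 and 44.9 RPKM against 22.1 and 17.2 RPKM. The list as a whole had a median of -0.45, opposite to its count, -1.08 for 614 against 648 and 0.40 without wildtype 648. Of 17 cohesin genes 3 lay above and 2 below, near the background, and 10 had negative differences, with a median of -0.12. Rad21l, a meiotic kleisin, measured 1.0, 0.897 and 0.632 RPKM against 0.0410 and 0.0720 RPKM, and the centromere guardian Sgo1 6.29, 6.03 and 4.46 RPKM against 1.24 and 1.33 RPKM.

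Genes of the sex body and of meiotic silencing lay above the wildtype range in 8 of 19 cases and below in 0, with a median of 0.70 (0.28 for 614 against 648). Rnf8, the ubiquitin ligase of the sex body, measured 128, 65.3 and 58.6 RPKM in knockout against 33.3 and 10.9 RPKM in wildtype libraries, a log2 difference of 1.83 ± 0.52. Brca1, which recruits the silencing machinery to unpaired axes, measured 7.02, 5.18 and 5.93 RPKM against 1.10 and 2.25 RPKM. Mdc1, Atrip, Cbx1, H2afx, Scml2 and Setdb1 were the other 6, and 2 of the 8 overlapped on the deposited scale. X-linked genes themselves had 113 of 650 (17.4%) above and 36 (5.5%) below the wildtype range. Their median level lay 2.51, 2.52 and 1.46 log2 units below the autosomal median in knockout 544, 550 and 614 and 3.14 and 1.77 below it in wildtype 178 and 648. The X level thus ran from 178 to 614 without separating the genotypes. The median X-linked difference was 0.36, 0.47 for 614 against 648, 0.98 without 648 and -0.37 without 178, so its sign rested on which wildtype mouse was used.

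**Figure D3:**
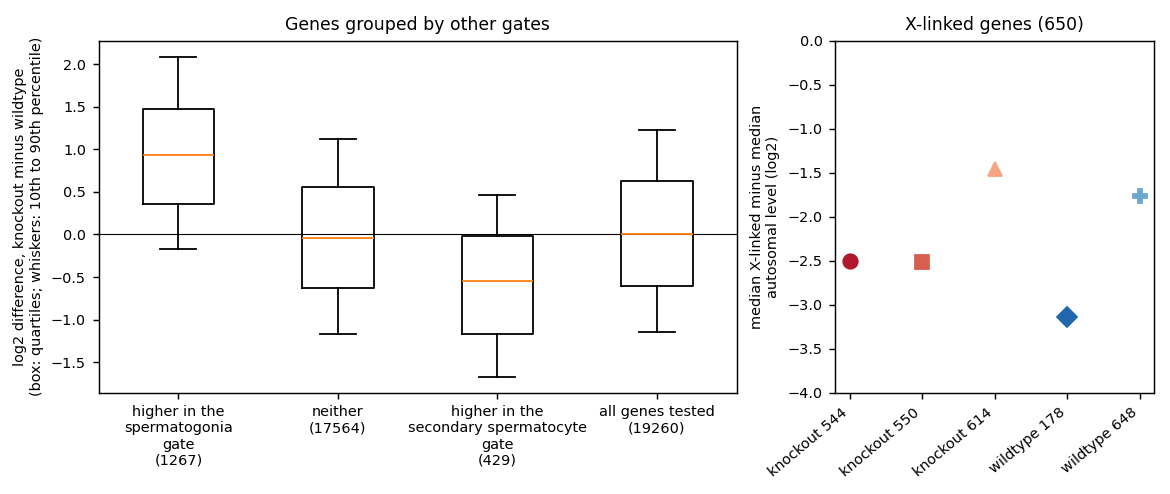
Left: log2 difference (knockout minus wildtype primary spermatocytes, vertical axis) of genes grouped by 2 other gates, with medians of 0.93, -0.04, -0.55 and 0. Right: median level of 650 X-linked genes minus the autosomal median (log2, vertical axis) in each library; wildtype 178 is lowest and knockout 614 highest.

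The piRNA pathway, which silences transposons in germ cells, was mixed, with 10 of 26 genes above and 5 below and a median of 0.32. Mov10l1, the helicase that starts piRNA biogenesis, measured 362, 191 and 128 RPKM in knockout against 72.1 and 26.7 RPKM in wildtype libraries, a log2 difference of 2.15 ± 0.50. Fkbp6, a chaperone partner of the pathway, measured 53.8, 18.1 and 17.8 RPKM against 6.38 and 2.03 RPKM, and Btbd18, a transcriptional activator of pachytene piRNA clusters, 4.61, 2.71 and 2.48 RPKM against 0.0530 and 0.495 RPKM. Piwil2, Exd1, Tdrd1, Ddx4, Tdrd9 and Tdrd12 were also above. Mael, which acts in nuage, was below at 250, 295 and 180 RPKM against 462 and 380 RPKM, and Tdrd3, Spocd1, Henmt1 and Tdrd7 by gaps of 0.02 to 0.25 log2 units. On both scales the list had 5 above and 3 below.

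Of 21 histone genes 11 lay above and 0 below, 9 of them on both scales, with a median of 1.24, which stayed between 0.92 and 1.51 with any library left out and was 1.70 for 614 against 648. Hist1h4c measured 956, 181 and 194 RPKM in knockout against 112 and 28.4 RPKM in wildtype libraries. Hist1h2bk measured 7.80, 1.65 and 4.0 RPKM against 0.497 and 0 RPKM. H2afv, a replacement variant, measured 71.9, 34.1 and 33.5 RPKM against 21.3 and 9.04 RPKM, and the linker histone Hist1h1e 6.27, 1.79 and 2.21 RPKM against 0.409 and 0.805 RPKM. In each of these genes knockout 544 was the highest library. Replication-dependent histone messages largely lack a poly(A) tail, and libraries were made from polyadenylated RNA, so their levels depend on what the selection carried over.

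Of 40 RNA-binding and translation regulators 10 lay above and 6 below, and on both scales 6 above and 3 below. Their median of 0.13 was -0.19 for 614 against 648 and -0.16 without wildtype 178. Dazl, the germ cell translation activator, measured 27.6, 17.0 and 15.2 RPKM against 4.06 and 7.47 RPKM, and Cpeb1, which acts in early meiosis, 23.7, 9.01 and 6.52 RPKM against 1.40 and 3.19 RPKM. Below lay Pabpc6 (56.0, 217 and 64.4 against 219 and 394 RPKM) and Pabpc2, testis relatives of the poly(A)-binding protein, and Rbm44. Of 44 germ cell transcription factors and chromatin regulators 12 lay above and 5 below, and on both scales 9 above and 2 below. Their median of 0.23 was 0.19 for 614 against 648, -0.25 without wildtype 178 and 0.04 without knockout 614. Suv39h2, the testis histone methyltransferase of heterochromatin, measured 8.47, 7.61 and 9.61 RPKM against 2.34 and 2.25 RPKM. Brdt, the testis bromodomain protein, lay below at 352, 466 and 222 RPKM against 544 and 1101 RPKM.

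Genes of the axoneme and flagellum, which spermatocytes begin to transcribe in pachytene, lay mostly on the lower side. Of 47 such genes 16 lay below both wildtype libraries and 3 above, and 40 of 47 had a negative difference. The median was -0.55, -0.70 for 614 against 648, -0.20 without wildtype 648 and -0.74 without wildtype 178, and on the deposited scale as well as after normalization 6 lay below and 3 above. Tekt3, a tektin of the tail microtubules, measured 11, 45.3 and 26.8 RPKM in knockout against 47.8 and 79.7 RPKM in wildtype libraries. Dnal1, a dynein light chain, measured 31.9, 39.1 and 27.6 RPKM against 47.7 and 94.2 RPKM, and Cfap61 121, 215 and 136 RPKM against 237 and 325 RPKM. The 3 above, Odf1, Akap4 and Akap3, are late spermatid genes of the outer dense fibres and fibrous sheath.

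Cyclins and kinases of meiotic division had 7 of 29 below and 1 above, and on both scales 3 below and 0 above. Their median was -0.11 and became 0.15 as deposited, and 12 of the 29 differences were positive. Spdya, an activator of cyclin-dependent kinases at telomeres, measured 78.6, 88.9 and 76.2 RPKM against 140 and 331 RPKM, a log2 difference of -1.38 ± 0.48. Ttk, the spindle checkpoint kinase, measured 23.3, 37.5 and 16.0 RPKM against 37.8 and 87.2 RPKM. Acrosome and egg-binding genes had 4 of 30 above and 5 below, near the background of 13.9% and 16.8%. Zpbp2, a zona pellucida binding protein, measured 199, 721 and 431 RPKM against 1009 and 1844 RPKM, whereas Spaca3 measured 3.39, 6.99 and 18.8 RPKM against 1.65 and 0.454 RPKM. Energy enzymes had 6 of 30 above and 2 below. Pkm, pyruvate kinase, measured 12.4, 6.92 and 11.2 RPKM against 3.73 and 1.64 RPKM, and Gapdh, of glycolysis, 365, 205 and 484 RPKM against 149 and 57.5 RPKM.

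Of 84 cytoplasmic ribosomal protein genes 10 lay above and 5 below, 66 had positive differences, and their median of 0.50 was 1.0 for 614 against 648, 0.85 without wildtype 178 and 0.02 without wildtype 648. Rpl10a measured 1039, 439 and 442 RPKM against 280 and 118 RPKM, and the paralog Rpl22l1 lay below at 6.33, 12.8 and 9.44 RPKM against 23.6 and 21.1 RPKM. Nuclear genes of oxidative phosphorylation gave 12 of 82 above and 10 below, with a median of 0.50 that was 0.90 for 614 against 648 and became -0.09 without 648. Ndufb4, a complex I subunit, measured 44.7, 37.6 and 37.6 RPKM against 97.2 and 123 RPKM, and Ndufa4 39.4, 13.2 and 24.1 RPKM against 6.53 and 4.28 RPKM. None of 13 mitochondrially encoded genes separated the genotypes. Their summed level was 11600, 12000 and 20800 RPKM in knockout 544, 550 and 614 and 14800 and 47000 RPKM in wildtype 178 and 648. Proteasome genes had 9 of 38 above and 5 below, and besides Psme2 its partner Psme1 lay above at 21.6, 11.2 and 67.6 RPKM against 3.45 and 5.11 RPKM. Of 21 tubulin genes 4 lay above and 0 below, led by Tubgcp3 at 19.9, 13.7 and 11.3 RPKM against 3.58 and 3.35 RPKM.

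Complement genes other than C3, the system that Csmd1 is known to restrain, had 0 of 29 members above the wildtype range and 4 below, with a median of -0.08. Cd55b, the testis form of a membrane regulator that speeds decay of complement convertases, measured 31.2, 103 and 64.0 RPKM in knockout against 172 and 175 RPKM in wildtype libraries, a log2 difference of -1.59 ± 0.55. Cd55, the common form, measured 3.64, 6.89 and 6.55 RPKM against 8.34 and 12.3 RPKM. C8b, of the terminal pathway, measured 36.7, 41.3 and 16.8 RPKM against 56.2 and 39.4 RPKM and overlapped as deposited, and C1ra was at most 0.216 RPKM in all 5 libraries. The 4 of 29 lay near the background of 16.8%. MHC class I and interferon genes had 4 of 20 above and 5 below. H2-D1, a class I heavy chain, measured 7.68, 3.85 and 7.06 RPKM against 2.13 and 0.0950 RPKM, H2-Q7 11.2, 4.45 and 8.03 RPKM against 2.79 and 0.535 RPKM, and Nlrc5, the class I transactivator, lay below at 0.0220, 0.254 and 0.409 RPKM against 0.581 and 0.769 RPKM. H2 genes are polymorphic between mouse strains and near-identical to each other, so their reads may be split or lost in mapping.

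Heat shock and immediate early genes gave 5 of 25 above and 5 below. The mitochondrial chaperones went together: Hspd1 measured 12, 9.55 and 16.1 RPKM against 1.06 and 2.86 RPKM and its partner Hspe1 12, 7.47 and 24.8 RPKM against 2.08 and 1.30 RPKM. Of 26 apoptosis and p53 target genes 7 lay above and 1 below, with 20 positive differences. Bax, which opens the outer mitochondrial membrane, measured 4.8, 1.88 and 6.75 RPKM against 0.626 and 0.0920 RPKM, a log2 difference of 3.04 ± 0.78, and Apaf1, the apoptosome scaffold, 5.0, 3.25 and 2.81 RPKM against 1.06 and 0.435 RPKM. Of 342 zinc finger genes 85 lay below and 29 above, with a median of -0.22 that was 0.19 as deposited and -0.70 for 614 against 648. Of 276 solute carriers 45 lay above and 46 below, near the background. Of 55 olfactory and vomeronasal receptor genes with enough reads 21 lay below and 3 above, and on both scales 11 below and 3 above. Their median was -0.61, -0.16 as deposited and -0.20 when adjusted for GC content, at median levels of -2.13 to -1.20 log2 units. Olfr1279 measured 0.423, 0.341 and 0.586 RPKM against 1.08 and 1.32 RPKM. No member of any list passed the adjusted threshold.

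**Figure D4:**
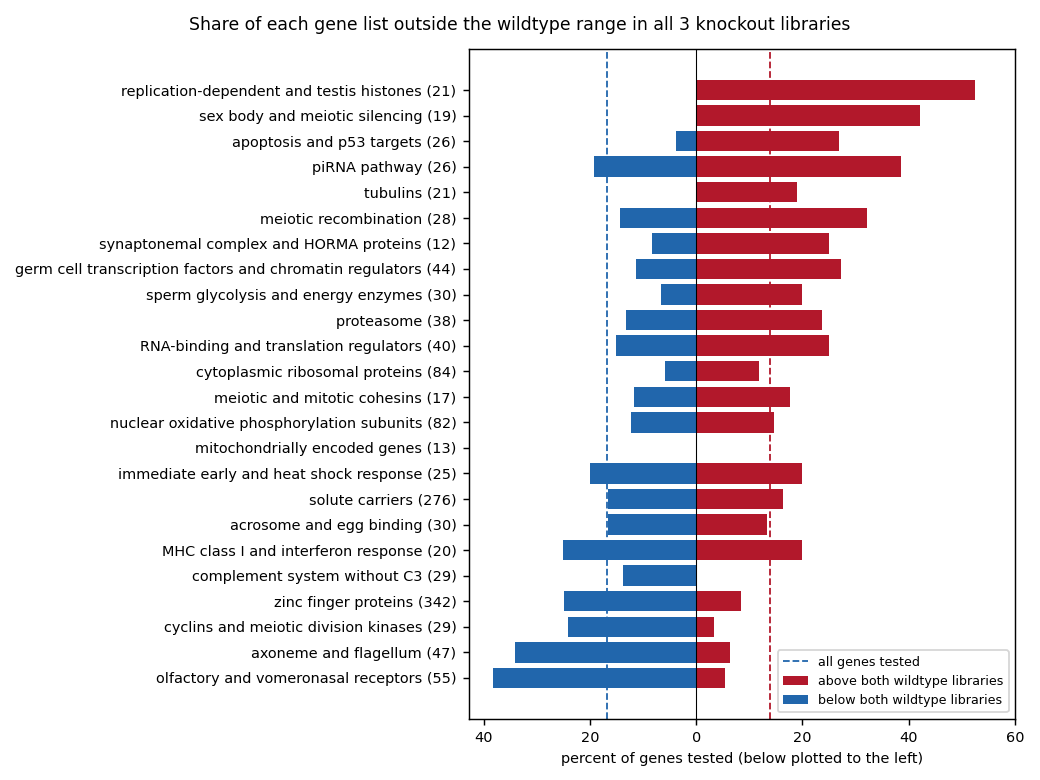
Share of the tested genes of each gene list other than cell type markers (horizontal axis, percent) above both wildtype libraries (red, to the right) or below both (blue, to the left); dashed lines are the shares of all 19260 genes, 13.9% and 16.8%. Among these lists, histones and sex body genes have the longest red bars without a blue one, and axoneme genes and olfactory receptors the longest blue bars.

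The base composition of a gene moved with the direction of its difference. The share of genes below both wildtype libraries went from 30.5% among 564 genes with a transcript GC content under 38% to 7.4% among 353 genes at or over 62%, while the share above went from 3.9% to 18.1%. Wildtype 648 stood apart: its median deviation from the mean of the 5 libraries was 0.84 log2 units for the genes lowest in GC and -0.49 for those highest. Wildtype 178 stayed between -0.02 and 0.18, and the knockout libraries ran from -0.45 to -0.19 in the lowest to 0.05 to 0.24 in the highest class. Separation was read again after a smooth fit on GC had been subtracted from each library, a choice made after the data were seen. There were then 2790 genes above and 3124 below, with medians of 1.74 for spermatogonial markers, 1.16 for histones, -0.53 for axoneme genes and 0.21 for synaptonemal complex genes. The part of GC in the other results was not tested.

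**Figure D5:**
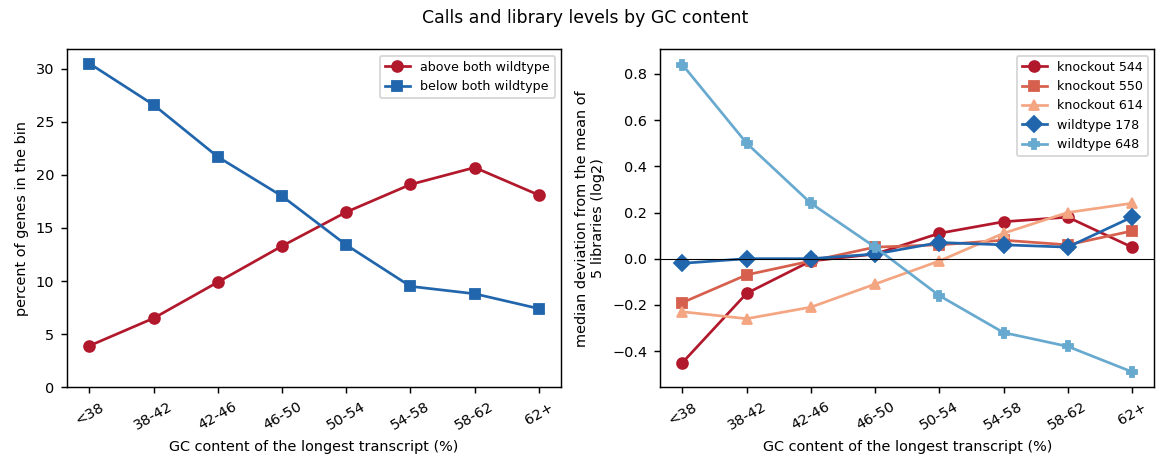
Left: percent of genes above or below both wildtype libraries (vertical axis) by GC content of the longest transcript (horizontal axis). Right: median deviation of each library from the mean of the 5 (log2, vertical axis) in the same classes; wildtype 648 goes from 0.84 to -0.49.

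Around the deleted gene, 159 genes were measured within 10 Mb of Csmd1 on chromosome 8, of which 14 (8.8%) lay above and 34 (21.4%) below the wildtype range, with a median of -0.18. Tubgcp3, of the gamma-tubulin ring, and the phospholipase gene Ddhd2 (2.89, 1.35 and 1.56 against 0.279 and 0.325 RPKM) lay above by more than 1 log2 unit. Gm7676 (0.324, 0.589 and 0.230 against 1.66 and 1.49 RPKM), Gm26804 and Gm21092 lay below by more than 1. Genes near a targeted locus are carried along with it from the strain in which it was made, and effects of that stretch and of the deletion cannot be told apart here.

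The library of knockout mouse 613, quantified in another way, was set beside the other 5 on 1 scale of quantile-normalized log2 values. Any comparison of it with wildtype uses the same 2 wildtype libraries that chose the genes, so the values are a description only. Dirc2 was at 0.47 in 613 against 1.38, 0.93 and 1.23 in knockout 544, 550 and 614 and -2.30 and -2.53 in wildtype 178 and 648. Ctps was at 2.83 in 613 against 4.73, 3.74 and 5.43 in the other knockout and 1.41 and 1.57 in the wildtype libraries. Efemp2 and Agrn went the other way, at 0.42 and -0.30 in 613, below both of their wildtype values. Among genes with downward gaps, Postn was at 0.45 in 613 against 4.86 and 5.74 in the wildtype libraries, whereas Speer1 was at 6.44 and Slc1a3 at 7.51, above both.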

How the data were processed

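RNA-seq was measured in 28 libraries of 13 mice. The authors made paired-end libraries from polyadenylated RNA, aligned them with TopHat2 to the Ensembl R72 annotation and deposited RPKM per transcript (94480 transcripts), and a counting tool and strand setting are not given in the sources used here. Transcripts were joined to genes through GENCODE M21 (GRCm38), which matched 90432 (95.7%). The unmatched ones were left out. RPKM of the 89664 matched transcripts with a value in all 5 libraries were summed per gene, quantile-normalized over these libraries and taken as log2(RPKM + 0.1). Genes with a mean of at least 0.1 RPKM were tested with limma 3.58.1 (R 4.3.3, Benjamini-Hochberg adjustment), with genotype as the term, on samples grouped by their labels. The p-values measure the spread between libraries of different mice. Depth was estimated from the step between low RPKM values, on which 93.7% to 94.6% of low values of the 5 libraries were whole reads within 0.06 of a read. Since RPKM are not counts and depth is an estimate, no interval for counting error is given. Libraries of different gates with the same mouse number came from the same animal, and their deviations from the group means correlated at -0.3 to 0.69 over 22 pairs. Each group mean included the library itself. Where gates held only 178 and 648 as wildtype mice, both gave the same value, such as 0.49 for spermatogonia and primary spermatocytes. The 22 pairs are thus not independent. Within the comparison no mouse is in both groups, so a replicate block could be fitted only over the 19 sorted libraries. Named genes were the 15 protein-coding genes with the largest gap in each direction and a mean of at least 1 RPKM, the 3 of lowest adjusted p on either side, the 5 long non-coding genes with the largest gaps, up to 4 members of each gene list with the largest gaps, cell type markers, and genes near Csmd1. Other genes were named after their values were seen. The members, lists and rules were chosen with earlier results of these data known. Scripts were tested on simulated data. Alternatives changed the pseudocount, filter, normalization, summing, libraries and block. Some items are not reported here.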

Additional observations from a re-analysis of the deposited data

How the results depend on the processing

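Without normalization, 4160 genes lay above both wildtype libraries and 1552 below, and with knockout 613 added 1156 lay above and 1950 below. Leaving out each library in turn gave 3376 to 6191 genes above and 4037 to 6446 below, with fewer values to separate, and 0 to 2 genes past the adjusted threshold. Without wildtype 178 the 2 genes called were Prm2 and Rn7sk, and without 648 there were 0. The difference of Rn7sk was 6.20 without 178 and -0.29 without 648, and that of Sycp3 was 0.46 without 648, -1.69 without 178 and 0.20 when adjusted for GC content, against -0.61. With 1 wildtype library left, it is assumed to vary like the knockout libraries. The number of genes at an unadjusted p under 0.05 was 3553 without wildtype 178, 941 without wildtype 648, 1287 without knockout 544, 2042 without knockout 550 and 1587 without knockout 614, against 2235. A minimum mean of 1 RPKM called 1 gene and adjustment for GC content, chosen after seeing the data, 1 gene, in both cases Gm8730. A fit over all 19 sorted libraries called 6 genes, and the same fit with mouse as replicate block called 2, Gm8730 and Gm25518. The cause of these differences was not tested. Both pseudocounts, no filter, transcript-level normalization and 1 transcript per gene called 0 genes and kept the counts of separated genes within 1.5 times. Depth was not a term in any fit, and with 2 wildtype libraries the spread of that genotype rests on a single pair. Of 2352 values of 149 named genes under the alternatives, 2349 kept their direction, the exceptions being those of Rn7sk and Sycp3, and 8 were past the adjusted threshold.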
